A study of Mus musculus with 8 samples.

Results

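The 8 genes described here are transcripts that T cells raise soon after their antigen receptor is engaged: the early growth response factors Egr1, Egr2 and Egr3, the orphan nuclear receptors Nr4a1, Nr4a2 and Nr4a3, the transcription factor Myc and the surface receptor Cd69. They were chosen by name as receptor-signal response genes, with earlier results of these data known, and are 8 of the 45232 gene names in the deposited table. The cells were CD4+ CD25+ T cells, a gate rich in regulatory T cells, sorted from C57BL/6 mice with at least 500 cells per sample. The 4 groups were Id2-deficient (labelled Id2 CKO, here KO) cells from visceral adipose tissue, wild-type (WT) cells from visceral adipose tissue, KO cells from the spleen and WT cells from the spleen. Each group held 2 libraries, numbered 2 and 3, and the column headers call these numbers experiments. The part of Id2 that was deleted, the driver of the deletion, and the age and sex of the mice are not given in the sources. No label states that libraries 2 and 3 of a group were separate animals, so a p-value here reflects how far these libraries varied, which may be technical. Values are TPM, a transcript's share of its library corrected for length, so levels of different genes can be compared. Because TPM carries no count of reads, depth is unknown and counting intervals cannot be given.

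When an antigen receptor is engaged, calcium, MAP kinase and protein kinase C signals reach factors such as NFAT, SRF with its ternary complex partners, and CREB, and genes of the Egr and Nr4a families are transcribed within minutes without new protein synthesis. Egr2 and Egr3 are known for restraining T cell activation, Nr4a1 (Nur77) is widely used as a reporter of recent receptor signalling, and Nr4a factors also sustain Foxp3 in regulatory T cells. Myc drives growth and metabolism after activation, and CD69 binds the sphingosine phosphate receptor S1PR1 and so keeps T cells in tissue. The same genes can answer other stimuli, including growth factors, cytokines and the stress of tissue handling, and Cd69 is also carried at rest by T cells that reside in tissue.

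Several libraries stood apart before any comparison. Foxp3, the defining factor of regulatory T cells, was low in both KO libraries of experiment 2, with 7.40 TPM in that from adipose tissue and 8.27 TPM in that from spleen, against 93.5 to 266 TPM in the other libraries. The sum of the 6 regulatory T cell markers, Foxp3 included, showed no such gap. For KO adipose 2 it was 1714 TPM, against 895 to 1652 TPM in the other adipose libraries. For KO spleen 2 it was 1618 TPM, against 1806 to 2183 TPM in the other spleen libraries. Most of that sum was Tnfrsf18, at 1352 and 1234 TPM in these libraries. Il2ra, at 33.8 and 71.8 TPM, was the lowest of its tissue in each of them. KO adipose 2 had the fewest gene names above 0, with 13184. KO adipose 3 had 20684 gene names above 0, against 13184 to 16822 elsewhere. Its 11 macrophage and monocyte markers summed to 11182 TPM, against 9.43 to 614 TPM in the other libraries, and its 5 adipocyte markers summed to 13751 TPM. Adipocyte markers summed to 2012 TPM in WT adipose 3 and to at most 14.2 TPM in the rest. Fibroblast and mesothelial markers were also high in KO adipose tissue, summing to 730 TPM in experiment 2 and 3481 TPM in experiment 3, against at most 4.76 TPM in the others. The summed TPM of the 4 erythroid markers in the table was 24598 and 41282 in KO adipose tissue and 37.0 and 2668 in WT adipose tissue, against 785 to 63197 TPM in spleen. The 10 T cell markers were above 0 in every library, but summed to 4087 TPM in KO adipose 3, against 7988 to 12005 TPM in the other libraries. Id2, the targeted gene, was lower in the KO library of each experiment, in adipose tissue with 1499 TPM in KO against 2249 TPM in WT (experiment 2) and 1298 TPM in KO against 3679 TPM in WT (experiment 3). In spleen Id2 was at 72.1 TPM in KO against 274 TPM in WT and at 265 TPM in KO against 346 TPM in WT. In bulk samples fewer cells of a type and less RNA per cell cannot be told apart, and the tissue cannot be told apart from the way each tissue was handled before sorting.

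Promoter sequence is shown as background for members whose regulation is tied to CREB and SRF. Any link between these sequences and the levels given below was not tested. RefSeq windows were matched for 4 of the 8 members, Nr4a1, Nr4a2, Nr4a3 and Egr2. Coordinates are on GRCm38.p6, which is not the mm9 build of the deposited values. Capitals mark the CRE core TGACG on either strand (written CGTCA on the other) and, in Egr2, the SRF CArG box. Each window lies upstream of an annotated transcript start and was cut before any exon base of the gene met within it. A transcript of the gene may start farther upstream. The windows are as follows: Nr4a1 chr15:101266596-101266845, plus strand; Nr4a2 chr2:57124004-57124253, minus strand; Nr4a3 chr4:48045055-48045152, plus strand; Egr2 chr10:67537619-67537868, plus strand.
Nr4a1: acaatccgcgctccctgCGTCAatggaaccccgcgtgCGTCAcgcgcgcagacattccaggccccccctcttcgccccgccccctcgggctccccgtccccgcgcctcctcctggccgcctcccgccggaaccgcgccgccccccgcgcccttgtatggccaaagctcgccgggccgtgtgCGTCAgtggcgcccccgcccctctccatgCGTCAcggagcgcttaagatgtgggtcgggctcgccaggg
Nr4a2: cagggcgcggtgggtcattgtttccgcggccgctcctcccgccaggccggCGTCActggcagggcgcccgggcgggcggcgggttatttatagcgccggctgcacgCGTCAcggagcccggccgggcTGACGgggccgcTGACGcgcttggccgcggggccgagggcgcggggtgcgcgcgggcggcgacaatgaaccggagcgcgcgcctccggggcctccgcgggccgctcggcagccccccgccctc
Nr4a3: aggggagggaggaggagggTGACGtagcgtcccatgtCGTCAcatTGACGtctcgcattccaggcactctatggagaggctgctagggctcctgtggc
Egr2: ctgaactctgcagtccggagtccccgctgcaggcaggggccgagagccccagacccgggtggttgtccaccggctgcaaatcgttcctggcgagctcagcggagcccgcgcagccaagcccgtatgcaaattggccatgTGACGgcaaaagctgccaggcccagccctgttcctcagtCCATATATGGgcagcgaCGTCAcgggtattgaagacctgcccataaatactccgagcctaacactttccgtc
Nr4a1 and Nr4a2 each held the CRE core in 4 places within 250 bases, Nr4a3 in 3 places within 98 bases, and Egr2 in 2 places with 1 CArG box. Of all 32851 mouse promoter windows of 250 bases, 17.8% held a CRE core and 1.47% a CArG box. These promoters are rich in G and C. Among the 9178 windows with at least 60% GC, 27.1% held a CRE core. In at least 2 places it was held by 7.54% of them, in at least 3 by 1.57% and in at least 4 by 0.370%. Within the first 98 bases, 8.55% of these windows held it. The full CRE, TGACGTCA, was in none of the windows shown. A match describes the letters only, and no binding was measured.

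Egr1 was the member that differed most between the tissues. It was at 67.4 and 229 TPM in KO adipose tissue and 127 and 423 TPM in WT adipose tissue, against 19.0 and 19.1 TPM in KO spleen and 22.0 and 18.0 TPM in WT spleen. All 4 adipose libraries lay above all 4 spleen libraries, and the 4 spleen libraries were nearly level while the adipose libraries spread widely. Egr1 was higher in adipose tissue by 3.06 on the log2(TPM + 1) scale (SE 0.48, limma across all genes, Benjamini-Hochberg adjusted p = 0.0204, averaged over genotypes). The call was lost without WT adipose 3 (adjusted p = 0.0586), KO adipose 3 (0.0537), WT spleen 2 (0.0954), WT spleen 3 (0.109) or KO spleen 2 (0.102), while the difference stayed between 2.62 and 3.50. WT adipose 3, the library with the highest Egr1, had a macrophage marker sum of 21.0 TPM over 11 genes, with Cd14, Fcgr1, Mrc1 and C1qa at 0, Lyz2 at 4.05 TPM and Adgre1 at 16.0 TPM. Adgre1 was at 126.9 TPM in KO adipose 3 and 0 to 3.91 TPM in the other libraries. The part of RNA from the cells behind the macrophage, adipocyte and endothelial marker sums in these Egr1 values was not tested.

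**Figure D1:**
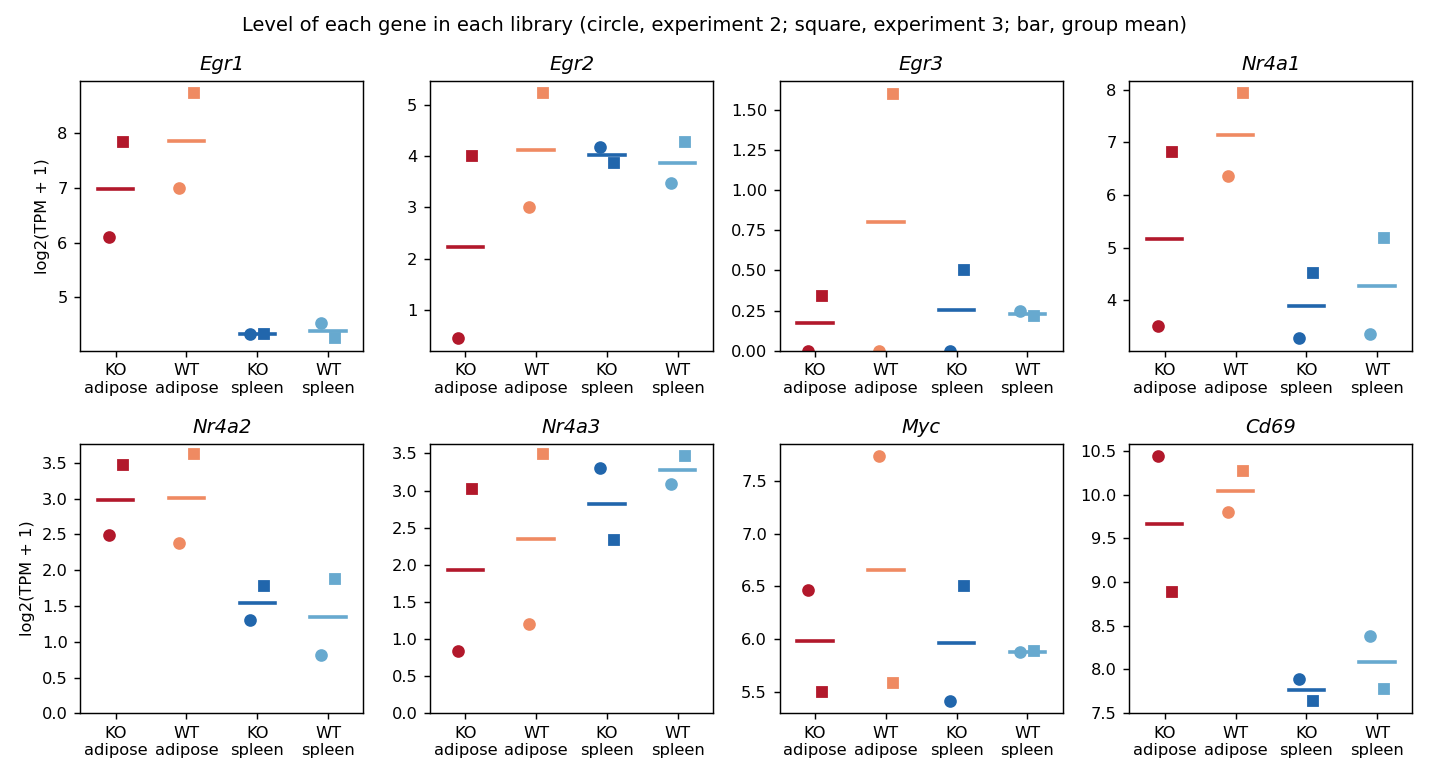
Levels of the 8 genes as log2(TPM + 1), with a scale of its own for each gene that need not start at 0 and the groups KO adipose, WT adipose, KO spleen and WT spleen from left to right. Each point is a library (circle, experiment 2, or square, experiment 3), and each bar is a group mean. Egr1, Nr4a2 and Cd69 show the 4 adipose libraries above the 4 spleen libraries, while Egr2 and Nr4a3 overlap.

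Egr2, which restrains activated T cells, did not follow Egr1. Egr2 was at 0.366 and 15.0 TPM in KO adipose tissue and 7.09 and 36.3 TPM in WT adipose tissue, against 17.0 and 13.6 TPM in KO spleen and 10.1 and 18.3 TPM in WT spleen. The adipose values spanned the spleen values on both sides, with the lowest of the 8 libraries in KO adipose 2 and the highest in WT adipose 3. The averaged tissue difference was -0.77 (SE 0.80, limma adjusted p = 0.592), and it was 0.11 without KO adipose 2 and 0.19 without both KO libraries of experiment 2. Egr3, a close relative of Egr2, was near the bottom of the scale, with 0 and 0.269 TPM in KO adipose tissue and 0 and 2.03 TPM in WT adipose tissue, against 0 and 0.418 TPM in KO spleen and 0.187 and 0.160 TPM in WT spleen. It passed 1 TPM in WT adipose 3 alone and was not tested, since a gene needed at least 1 TPM in at least 2 libraries.

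The makeup of the Egr family therefore differed by tissue. Egr1 supplied 99.5% and 93.8% of the summed Egr TPM in KO adipose tissue and 94.7% and 91.7% in WT adipose tissue, against 52.7% and 57.6% in KO spleen and 68.2% and 49.4% in WT spleen. In the spleen Egr2 was nearer to Egr1 than in adipose tissue. It ranged from 31.2% of the summed Egr TPM in WT spleen 2 to 50.2% in WT spleen 3, where Egr2 was above Egr1. Ratios between members were taken within each library on TPM + 1, and the log2 ratio of Egr2 to Egr1 was -4.25 ± 0.95 in adipose tissue and -0.41 ± 0.47 in spleen (SD, n = 4 libraries each), and the groups did not overlap. That difference had an exact two-sided permutation p = 0.0286, the smallest that 70 arrangements allow. Adjusted over the 7 ratios computed, this permutation p was 0.05, which is not under the threshold of 0.05. The arrangements did not keep the matching of libraries by genotype and experiment, and no matched test of the ratios was run. Egr3/Egr1 differed by -2.82 with the same p-values, but with Egr3 near 0 that ratio mostly follows Egr1. Egr2/Egr1 also carries the tissue difference of Egr1, since Egr2 alone overlapped between the tissues.

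Nr4a1, the reporter of recent receptor signalling and the first of the promoters shown above, was high in 3 of the 4 adipose libraries. It was at 10.4 and 111 TPM in KO adipose tissue and 80.9 and 243 TPM in WT adipose tissue, against 8.69 and 22.1 TPM in KO spleen and 9.33 and 35.5 TPM in WT spleen. KO adipose 2 lay among the spleen libraries, so the tissues overlapped, although adipose tissue was above spleen in each of the 4 pairs matched by genotype and experiment. The averaged difference of Nr4a1 was 2.06 (SE 0.78, limma adjusted p = 0.173), and with the experiment number as a block the adjusted p was 0.0288. Without KO adipose 2, where Foxp3 was at 7.40 TPM and the fewest gene names were above 0, the difference of Nr4a1 was 2.89. Without KO adipose 3 that difference was 1.24.

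Nr4a2 (Nurr1) was low everywhere but ordered by tissue. It was at 4.62 and 10.0 TPM in KO adipose tissue and 4.20 and 11.3 TPM in WT adipose tissue, against 1.46 and 2.42 TPM in KO spleen and 0.752 and 2.68 TPM in WT spleen. The 4 adipose libraries lay above the 4 spleen libraries, and KO and WT were close in each experiment. Its averaged difference was 1.55 (SE 0.49, limma adjusted p = 0.123), and 0.0375 was the adjusted p with the experiment block.

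Nr4a3 (Nor1) did not share this order. It was at 0.790 and 7.15 TPM in KO adipose tissue and 1.31 and 10.3 TPM in WT adipose tissue, against 8.88 and 4.06 TPM in KO spleen and 7.54 and 10.0 TPM in WT spleen. The adipose libraries of experiment 2 were the lowest of the 8, and those of experiment 3 lay within the spleen range or just above it. The averaged difference was -0.91 (SE 0.67, limma adjusted p = 0.449). Within the family, Nr4a3 made up 4.98% and 5.57% of the summed Nr4a TPM in KO adipose tissue and 1.52% and 3.89% in WT adipose tissue, against 46.7% and 14.2% in KO spleen and 42.8% and 20.8% in WT spleen. The log2 ratio of Nr4a3 to Nr4a1 was -4.01 ± 1.05 in adipose tissue and -1.04 ± 1.08 in spleen (SD, n = 4 each) with no overlap, and an exact two-sided permutation p = 0.0286, or 0.05 adjusted over 7 ratios. Nr4a2/Nr4a1 differed by -0.51 (exact p = 0.514). Whether the CRE cores in the Nr4a windows bear on these levels was not tested.

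**Figure D2:**
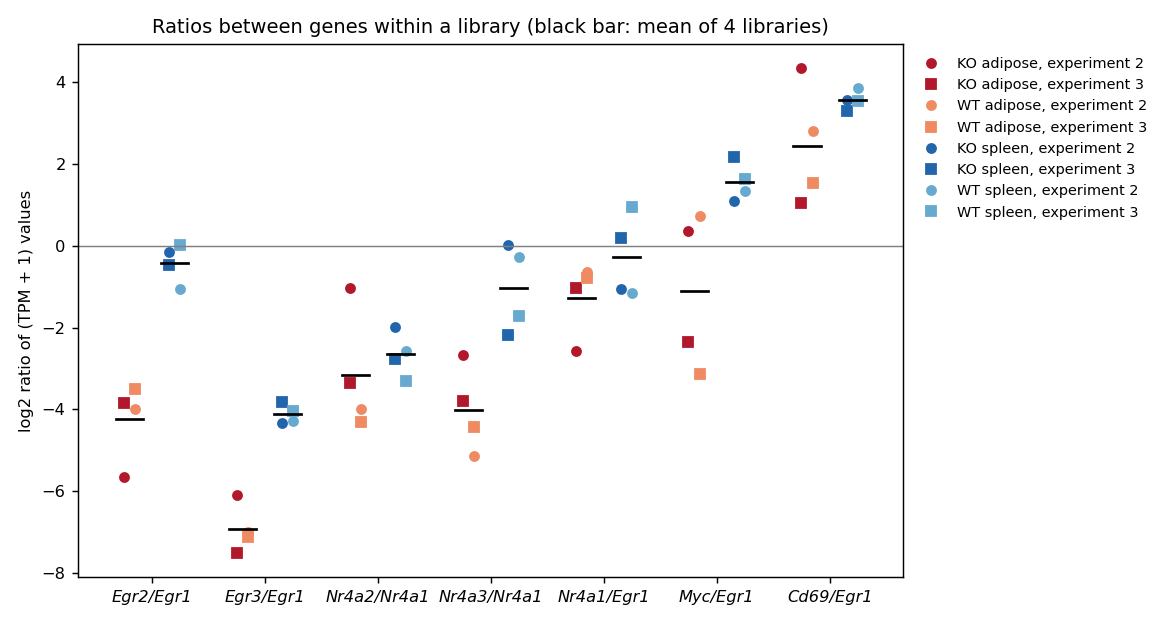
Log2 ratios of TPM + 1 of pairs of members in each library, adipose tissue left of spleen; points are libraries and bars the mean of 4. Egr2/Egr1, Egr3/Egr1, Nr4a3/Nr4a1 and Myc/Egr1 show no overlap between the tissues, and Nr4a2/Nr4a1, Nr4a1/Egr1 and Cd69/Egr1 overlap.

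Myc, which drives growth after activation, was higher in experiment 2 than in experiment 3 in both adipose groups, where the Egr and Nr4a genes were lower. It was at 87.2 and 44.3 TPM in KO adipose tissue and 212 and 47.0 TPM in WT adipose tissue, against 41.6 and 90.0 TPM in KO spleen and 57.7 and 58.3 TPM in WT spleen. The tissues overlapped, with adipose tissue above spleen in both pairs of experiment 2 and below it in both pairs of experiment 3. Its averaged tissue difference was 0.40 (SE 0.50, limma adjusted p = 0.663), and it was -0.14 without WT adipose 2 and -0.11 without the KO libraries of experiment 2. The log2 ratio of Myc to Egr1 was -1.10 ± 1.94 in adipose tissue and 1.57 ± 0.47 in spleen (SD, n = 4 each), without overlap. Its exact two-sided permutation p was 0.0286, or 0.05 adjusted over 7 ratios. Myc alone overlapped between the tissues and Egr1 did not, so this ratio carries the tissue difference of Egr1. Without KO adipose 2, 5 of the 7 ratios had an adjusted exact permutation p of 0.04: Egr2/Egr1, Egr3/Egr1, Nr4a3/Nr4a1, Myc/Egr1 and Cd69/Egr1. Each of them was at the smallest p that the arrangements allow. The adjusted value moved from 0.05 only because Cd69/Egr1 also reached that smallest p, so passing there reflects the number of ratios at the limit.

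Cd69, the retention receptor, was the most abundant member in every library and was higher in adipose tissue. It was at 1390 and 473 TPM in KO adipose tissue and 894 and 1238 TPM in WT adipose tissue, against 237 and 198 TPM in KO spleen and 334 and 219 TPM in WT spleen. The 4 adipose libraries lay above the 4 spleen libraries, and KO and WT changed places between the experiments in adipose tissue. Cd69 was higher by 1.93 (SE 0.36, limma adjusted p = 0.0341, averaged over genotypes). It was not called without KO spleen 2 (adjusted p = 0.137), KO spleen 3 (0.0619), WT adipose 2 (0.0600), WT adipose 3 (0.131), WT spleen 2 (0.111) or WT spleen 3 (0.144), with the difference between 1.54 and 2.32. KO adipose 3, with the highest macrophage, adipocyte and endothelial marker sums, had the lowest Cd69 of the adipose libraries.

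Read as a set, 2 of the 7 tested members were called in the averaged tissue comparison, against 3.06% of all 13376 genes tested in either direction and 2.33% of them higher in adipose tissue. The median difference over the 7 was 1.55, against 0.24 over all genes. With the experiment number as a block, 4 of the 7 were called, Egr1, Nr4a1, Nr4a2 and Cd69, against 6.62% of all genes. Egr1, Nr4a2 and Cd69 had no overlap between the tissues, a pattern that 11.6% of all genes had. Adipose tissue was above spleen in all 4 matched pairs for Egr1, Nr4a1, Nr4a2 and Cd69, against 23.6% of all genes. Without both libraries of low Foxp3 the differences of Egr1 and Cd69 were 3.50 and 1.60, and neither passed (limma adjusted p = 0.0813 and 0.0931). In that setting limma called 0 of all 13376 genes, with 2709 at an unadjusted p under 0.05, so every call between the tissues was lost in it, in the members and in the lists alike.

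**Figure D3:**
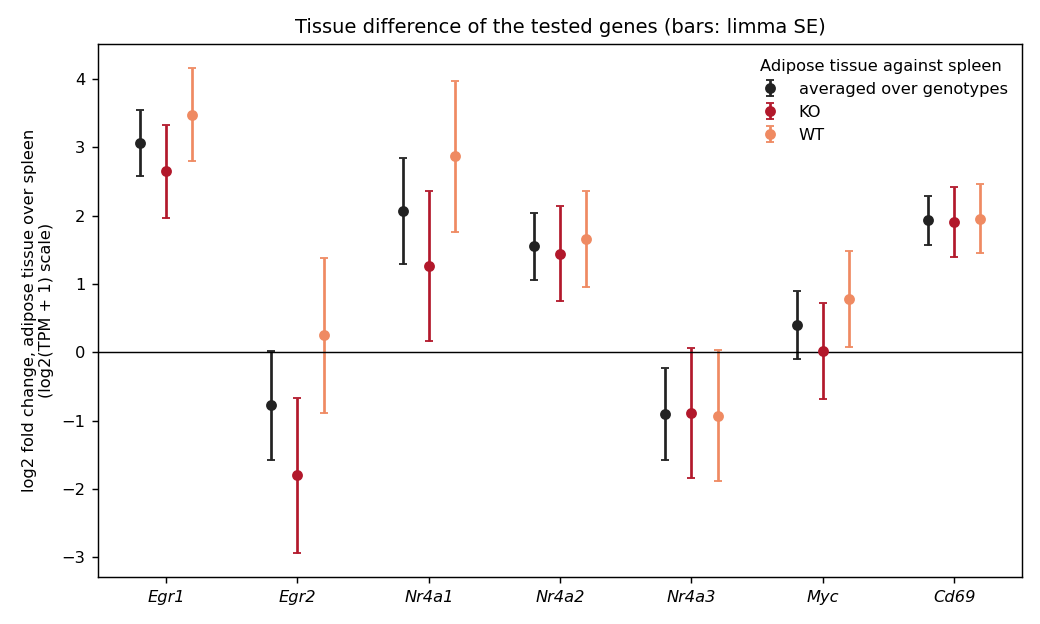
Difference between adipose tissue and spleen in log2(TPM + 1) for the 7 tested members, averaged over genotypes and within KO and WT, with bars of 1 SE from the limma fit. Egr1 and Cd69 sit farthest above 0 relative to their error, and Egr2 and Nr4a3 sit below 0 in the average.

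Within each genotype Egr1, Nr4a1, Nr4a2 and Cd69 had positive tissue differences, as in the average. In KO cells Egr1 was 2.65 higher (SE 0.68, limma adjusted p = 0.140) and Cd69 1.90 higher (SE 0.51, adjusted p = 0.162), and in WT cells Egr1 was 3.48 higher (SE 0.68, adjusted p = 0.111) and Cd69 1.96 higher (SE 0.51, adjusted p = 0.202). limma called 0 of the 7 members in KO cells, against 1.08% of all genes, and 0 in WT cells, against 0.164% of all genes, while 2 in KO and 4 in WT had an unadjusted p under 0.05. Without KO adipose 2, Egr1 was called in KO cells, with a difference of 3.52 and an adjusted p of 0.0457, in a setting where 663 of all genes were called, against 144 with all libraries. Egr2 showed the widest gap between genotypes, with a tissue difference of -1.80 in KO cells and 0.25 in WT cells. That gap rested on KO adipose 2, without which the difference of Egr2 in KO cells was -0.026. The interaction, the test of whether the tissue difference depends on genotype, called 0 of the 7 members by limma, against 0.0299% of all genes, and 0 had an unadjusted p under 0.05. Its values ran from -2.05 for Egr2 to 0.04, and without KO adipose 2 that of Egr2 was -0.27.

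Set against each other, the members were not ordered by family. Likeness was the root mean square distance between centred log2(TPM + 1) profiles over the 8 libraries, which share library effects and so is a description. Egr2 and Nr4a3 were the nearest pair at 0.69, followed by Nr4a2 and Cd69 at 0.85, Egr1 and Nr4a2 at 0.92, and Egr1 and Nr4a1 at 0.97, with Nr4a1 and Nr4a2, of 1 family, next. Egr1 and Egr2, of 1 family, were the farthest apart at 2.03, and Egr1 and Nr4a3 were at 2.02. The order of abundance was alike in its ends, since Cd69 led and Egr3 was last in all 8 libraries. Between them, Egr1 and Nr4a1 both stood above Myc in the adipose libraries of experiment 3, while Myc stood above both in each spleen library and in the adipose libraries of experiment 2.

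**Figure D4:**
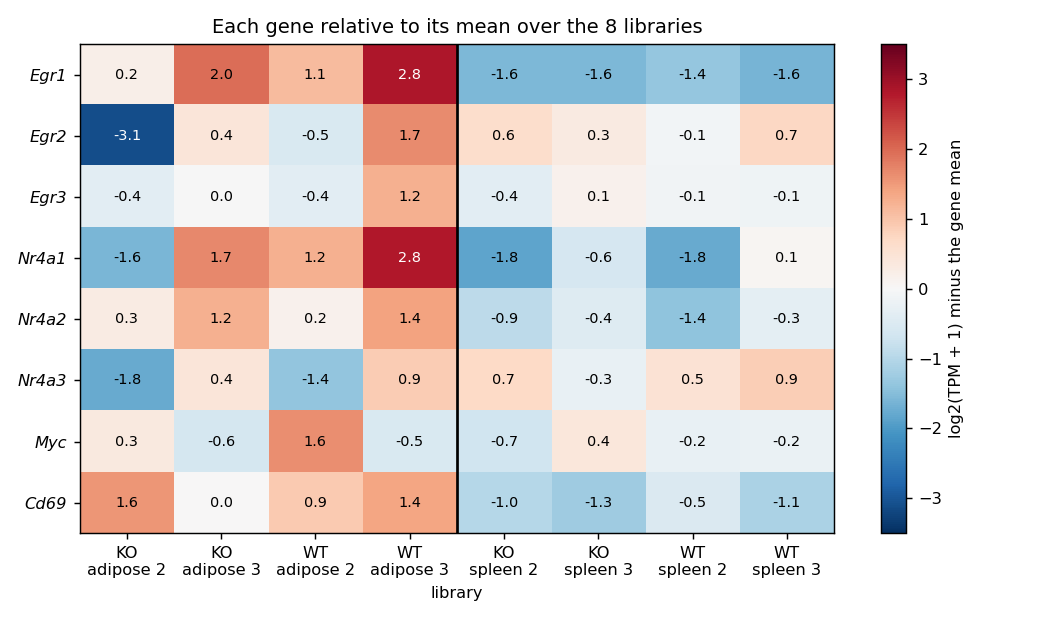
Heat map of log2(TPM + 1) of each gene minus its mean over the 8 libraries, with genes in rows and libraries in columns, adipose tissue left of spleen. WT adipose 3 is the highest column for Egr1, Egr2, Egr3, Nr4a1, Nr4a2 and Nr4a3, and KO adipose 2 is the lowest for Egr2 and Nr4a3.

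The experiment number moved with the members in adipose tissue. Egr1, Egr2, Nr4a1, Nr4a2 and Nr4a3, 5 of the 7 tested members, were higher in experiment 3 than in experiment 2 in both KO and WT adipose tissue, which 35.9% of all genes were. Egr1 was higher by 1.75 in KO and 1.73 in WT adipose tissue, and Nr4a1 by 3.29 and 1.58. In spleen Egr1 differed by 0.0038 in KO and -0.28 in WT between the experiments, and Nr4a1 by 1.25 and 1.82. Myc was lower in experiment 3 in both adipose groups, by 0.96 in KO and 2.15 in WT on the log2 scale. WT adipose 3 was the highest of the 8 libraries for 6 members, all 3 Egr and all 3 Nr4a genes. The adipocyte marker sum was also higher in experiment 3 in both adipose groups, and its part in these differences was not tested.

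No member was called between KO and WT cells. In adipose tissue all 7 tested members were lower on average in KO cells, with Nr4a1 at -1.98 (SE 1.10), Egr2 at -1.90, Egr1 at -0.89, Myc at -0.68, Nr4a3 at -0.42, Cd69 at -0.37 and Nr4a2 at -0.02. limma called 0 of them, with adjusted p from 0.751 to 0.998, against 0.284% of all genes called, and 0 had an unadjusted p under 0.05. The median over the members was -0.68, against -0.27 over all genes. Over the 10 T cell markers the median was -0.71, and 0 of the 10 were higher in KO cells, so the shift was not particular to the members. Egr1, Egr2, Nr4a1, Nr4a3 and Myc were below WT in both experiments, 5 of 7 tested members, a pattern that 43.1% of all genes had. No member had both KO adipose libraries below both WT adipose libraries, against 27.5% of all genes. Nr4a1 was at an adjusted p of 0.260 with the experiment block. The largest differences rested on KO adipose 2, the adipose library of low Foxp3 and the one with the fewest gene names above 0 (13184). Without it Nr4a1 was at -0.33, Egr2 at -0.12 and Egr1 at -0.015, and without KO adipose 3 they were at -3.63, -3.67 and -1.77. Without WT adipose 3 Egr1 was at -0.023. In spleen the KO differences lay between -0.46 and 0.19, and limma called 0 members and 0% of all genes, with 0 members at an unadjusted p under 0.05. The erythroid and the fibroblast and mesothelial marker sums given above were higher in both KO than in both WT adipose libraries, and their part in these values was not tested.

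The wider immediate early programme, genes that like the members are transcribed without new protein synthesis, was largely higher in adipose tissue. Of 24 listed and tested genes, 16 were higher in adipose tissue and 0 lower by limma, against 2.33% and 0.725% of all genes. Their median was 2.85, against 0.24 over all genes, and the difference between this list and the members was not tested. The count was 10 when either WT spleen library was left out, where 24 and 67 of all genes were called, against 409 with all libraries. Fos, the AP-1 subunit, was at 1779 and 1525 TPM in KO adipose tissue and 1475 and 3107 TPM in WT adipose tissue, against 6.48 and 2.21 TPM in KO spleen and 6.11 and 15.2 TPM in WT spleen. Its difference was 8.02 (SE 0.40, limma adjusted p = 0.000207), and that of Dusp1, a MAP kinase phosphatase, was 5.02 (SE 0.25, adjusted p = 0.000207). Ier2 and Ier3, both immediate early response genes, were 3.21 and 3.75 higher (adjusted p = 0.00245 and 0.00348). These 4 passed in 15 of 16 alternatives each, all but the one in which no gene was called.

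Genes tied to the restraint of T cells by Egr factors gave 2 of 11 higher and 0 lower, against 2.33% and 0.725% of all genes. Their median was 0.65, against 0.24 over all genes. Rnf128 (GRAIL), an E3 ligase linked to anergy, was at 102 and 66.7 TPM in KO adipose tissue and 106 and 395 TPM in WT adipose tissue, against 3.69 and 1.96 TPM in KO spleen and 1.35 and 1.83 TPM in WT spleen. Its difference was 5.40 (SE 0.45, limma adjusted p = 0.00245). Cdkn1a, an inhibitor of the cell cycle, was 2.68 higher (SE 0.50, adjusted p = 0.0338), and it passed in 8 of 16 alternatives. It did not pass without KO adipose 3, WT adipose 3 or any 1 spleen library (adjusted p = 0.0554 to 0.143). With the experiment block 4 of the 11 were higher, against 5.15% of all genes, with Socs1, an inhibitor of cytokine signalling, and Ndrg1 also called. After quantile normalization 2 of the 11 were higher and 1 was lower, in a setting where 590 of all genes were called.

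The lists around the other members held few calls. Of 11 genes linked to Nr4a, 0 rose and 1 fell, against 0.725% of all genes that fell, Ikzf2 (Helios), a regulatory T cell factor, by 1.59 (limma adjusted p = 0.0309). Ikzf2 did not pass without KO adipose 3, either WT adipose library or either WT spleen library (0.0632 to 0.140). The median of this list was -0.81, against 0.24 over all genes. The count was 1 with the experiment block, 2 without KO adipose 2, and 4 after quantile normalization, where Ikzf4, Irf4 and Tox were also lower. Of 16 Myc targets, 0 rose and 1 fell, the nucleolar gene Npm1, by 1.22 (adjusted p = 0.0489). Npm1 lost its call when any library except KO spleen 3 was left out (0.0615 to 0.179). limma called none of 9 tested Myc partners and none of 14 factors upstream of the members, also with the experiment block. Of 10 heat shock genes 0 were called, and the mitochondrial chaperonin gene Hspe1, at -1.47 (adjusted p = 0.0625), passed with the block (0.0490) and without KO spleen 3 (0.0153), where Hsp90aa1 also passed (0.0446).

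Later activation genes, which follow sustained stimulation, gave calls in both directions. Of 12 tested genes 1 rose and 3 fell, against 2.33% and 0.725% of all genes. Their median was -0.58, against 0.24 over all genes. The list shares genes with the 6 regulatory T cell markers, Il2ra and Tnfrsf18 among them. Of those 6 markers 0 were higher in adipose tissue, with a median of -0.75. The part of cell makeup in the falls of this list was not tested. Tnfrsf9 (4-1BB), a costimulatory receptor, was at 25.4 and 32.3 TPM in KO adipose tissue and 22.7 and 69.3 TPM in WT adipose tissue, against 224 and 290.5 TPM in KO spleen and 321 and 264 TPM in WT spleen. It was lower in all 4 adipose libraries, by 2.98 on the log2 scale (SE 0.35, limma adjusted p = 0.00733), and did not pass without WT spleen 2 (0.0570). Tnfrsf4 (OX40) fell by 1.55 and the AP-1 family factor Batf by 1.61 (adjusted p = 0.0424 and 0.0427), while the NF-kB regulator Nfkbid rose by 1.83 (adjusted p = 0.0377). Each of these 3 lost its call without KO adipose 3, WT adipose 3, KO spleen 2, WT spleen 2 or WT spleen 3, and Tnfrsf4 and Nfkbid also without KO spleen 3 and Tnfrsf4 and Batf without WT adipose 2 (0.0544 to 0.177). The count over the list was 4 with the block and 0 without WT spleen 2, where 24 of all genes were called.

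Genes outside the members were compared by the same distance, leaving out clones, predicted genes, pseudogenes, antigen receptor segments and similar names. Some of those left out lay nearer to Egr2, Nr4a2 and Nr4a3 than genes named here. Among the rest, the genes with the profile nearest to each member were Ctla2a (0.37), Il17f (0.37) and Cdkn1a (0.39) for Egr1, and Emb (0.14), Socs2 (0.24) and Cdc42ep3 (0.28) for Cd69. Slc5a6 (0.16), Sbf2 (0.21) and Map4 (0.21) were nearest to Nr4a2, and Pigz (0.40), Plekho2 (0.45) and Acap3 (0.46) to Nr4a1. For Nr4a3 they were Kdm6b (0.44), Gmeb1 (0.46) and Zfp598 (0.47), and for Egr2 Hist1h2bg (0.49), Top1mt (0.56) and Fam134c (0.57). Tbl2 (0.21), Dck (0.23) and Ntrk3 (0.23) were nearest to Myc. The 3 genes nearest to Egr1 and the 3 nearest to Cd69 had no name in common, although both members were called higher in adipose tissue.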

How the data were processed

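The deposited table holds TPM values per gene name, made by the authors, for 8 libraries in 4 groups of 2. The kits, per the labels' protocols, were SMARTer-seq v4 for cDNA from few cells and Nextera XT for the libraries. Per the submitters' processing notes the build was mm9. No source names the aligner, the counter or the annotation. TPM sums to the same total in each library, so depth is unknown.

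Values were taken as log2(TPM + 1), and genes reaching 1 TPM in 2 or more libraries (13376 of 45232 names) were fitted with limma 3.58.1 in R 4.3.3, with 1 mean per group over all 8 libraries, a trended variance, 4 residual degrees of freedom and Benjamini-Hochberg adjustment over all genes tested, with a threshold of 0.05. A fold on this scale understates the change of low genes. Ratios were tested by exact permutation over all 8 libraries with scipy 1.17.1, without the matching by genotype and experiment. The fits were tested on simulated data. Alternatives were pseudocounts of 0.1 and 5, other filters, no trend, quantile normalization, a block for the experiment, and leaving out libraries.

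The members and lists were chosen with earlier results of these data known. All members are named, with at most 4 genes of smallest p from each list and the 3 nearest genes per member. Clones, predicted genes, pseudogenes, antigen receptor segments and similar names were left out of the nearest genes. Results of some listed genes, and of 2 lists, are not reported here. Same-numbered libraries deviated together in all 6 pairs of groups (r of the experiment differences over genes 0.13 to 0.38), and the numbers are experiments per the file headers, so they pair the libraries. Promoter windows are RefSeq sequences on GRCm38.p6, cut before the first GENCODE M21 exon base met within the window.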

Additional observations from a re-analysis of the deposited data

How the results depend on the processing

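The number of members called between the tissues, averaged over genotypes, was 2. It was 4 with the replicate block of experiment numbers, 1 with no trend, 0 with no filter on low values, 0 without both KO libraries of experiment 2, and 0 to 2 with 1 library left out. Over all genes limma called 409, against 885 with the block, 303 with no trend, 21 of 23448 with no filter, 0 without both KO libraries, and 24 to 911 with 1 library left out. With no filter, limma gave an adjusted p of 0.104 for Egr1 and 0.125 for Cd69, and with no trend 0.0627 for Cd69. In KO cells the count was 0 to 1 with 1 library left out, and the count of ratios under 0.05 was 0 to 5, with 5 without KO adipose 2. The replicate block changed no other call of a member. Quantile normalization added calls of Hspe1 and Hsp90aa1 among the heat shock genes. List counts under these settings were an alternative chosen after seeing the data.

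Some small differences turned sign, and the cause was not tested. Without both KO libraries of experiment 2 the averaged tissue difference was 0.19 for Egr2 and -0.11 for Myc. The KO tissue difference was then 0.69 for Nr4a3, 0.13 for Egr2 and -1.01 for Myc. KO minus WT in adipose tissue was then 0.46 for Nr4a2 and 0.67 for Nr4a3, and in spleen -0.00061 for Egr2 and 0.25 for Nr4a1. The interaction was then 0.032 for Nr4a2 and 0.044 for Egr1. Quantile normalization, which moved the median of all genes by -0.33 in the averaged tissue comparison, gave -0.14 for Egr2 in WT tissue, -0.35 for Myc in KO tissue, 0.19 for Nr4a2 in KO against WT adipose tissue, 0.093 for Egr1 in KO against WT spleen and 0.088 for the Cd69 interaction. A pseudocount of 0.1 gave -0.067 for the Nr4a3 interaction. Leaving out 1 library moved the averaged tissue difference of Egr2 between -1.66 and 0.11 and of Myc between -0.14 and 0.94. In WT cells it moved Nr4a3 between -2.07 and 0.22, Egr2 between -0.85 and 1.35 and Myc between -0.30 and 1.85, and in KO cells Nr4a3 between -1.98 and 0.21, Myc between -0.53 and 0.57 and Nr4a1 between -0.39 and 2.91. KO minus WT in adipose tissue ran between -0.65 and 0.60 for Nr4a2, -1.56 and 0.72 for Nr4a3, -1.15 and 0.40 for Cd69 and -1.76 and 0.40 for Myc. In spleen it ran between -0.34 and 0.73 for Nr4a2, -0.94 and 0.025 for Nr4a3, -0.25 and 0.55 for Egr2, -0.47 and 0.62 for Myc, -1.29 and 0.53 for Nr4a1 and -0.20 and 0.079 for Egr1. The interaction ran between -0.84 and 0.41 for Nr4a2, -1.11 and 1.18 for Nr4a3, -0.83 and 0.72 for Cd69, -1.83 and 0.32 for Myc, -3.25 and 0.044 for Nr4a1 and -1.71 and 0.046 for Egr1. With 2 libraries a group, a library left alone in its group is assumed to vary like the others, and depth could not be weighed.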
